A study of Mus musculus with 4 samples.

Results

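The difference between the responses of mouse kidneys of both genotype labels to ischemia-reperfusion was examined gene by gene. For each gene the log2 ratio of ischemia-reperfusion to sham in the wild-type pair of arrays was subtracted from the same ratio in the knockout-labelled pair. A positive difference is a response that was higher in the knockout-labelled pair, and a negative one a response that was lower there. The same value is the knockout-labelled over wild-type ratio of the ischemia-reperfusion arrays minus that of the sham arrays, so it can be made by the injured kidneys, by the sham kidneys or by both. Of 45037 probe sets, 34945 carried exactly 1 gene symbol, and they gave 18193 genes. Of these, 13808 were measured, that is at or over a floor at the 40th percentile of all signals (a log2 signal of 5.72) in 1 or more arrays. The other 4385 were under it everywhere, and 12446 were at or over it in all 4 arrays.

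The kidneys came from male C57Bl/6 mice of 4 groups: wild type after sham surgery, wild type after ischemia of 60 min with reperfusion of 24 h, and mice labelled Tet2 knockout after either procedure. Every group had 1 array, hybridised with RNA pooled from 3 mice. The labels give no age and do not say in which cells or how Tet2 was deleted. These values hold no spread between mice, no test was made, and precision is limited by the number of arrays. Technical error was gauged in part, from 12706 probe sets of 4951 genes at or over the floor in all 4 arrays. The SD between probe sets of one gene was 0.39 for the difference, in log2. It was 0.19 for the ratio of the sham arrays and 0.33 for that of the ischemia-reperfusion arrays. Error shared by all probe sets of an array does not enter these SDs.

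Tet2, the targeted gene, encodes a dioxygenase that oxidises 5-methylcytosine in DNA. Of its probe sets, one had log2 signals of 9.96, 9.16, 9.87 and 8.74 in wild-type sham, wild-type ischemia-reperfusion, knockout-labelled sham and knockout-labelled ischemia-reperfusion, an order kept below. Its other probe set had 9.84, 9.30, 10.25 and 8.60. The sham array with the knockout label was thus not lower for Tet2, with ratios of -0.09 and 0.41, so the groups are called knockout-labelled. Where these probe sets lie relative to the deleted part is not known here, and outside it they check nothing. The differences of the responses for Tet2 were -0.33 and -1.11.

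Ischemia-reperfusion stops the blood flow of the kidney and then restores it. The straight part of the proximal tubule, in the outer medulla, is the segment known to be hit hardest. Surviving tubule cells lose the transporters and metabolic enzymes of their segment and express injury genes, and leukocytes enter. Sham surgery handles the kidney without stopping its blood flow, and its array is the base of each response.

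Both directions held almost the same number of genes. The difference was higher at 2-fold or more in 656 genes, which is 4.75% of the measured genes, and lower in 658 genes, or 4.77%. At 4-fold or more these counts were 126 genes (0.913%) and 100 genes (0.724%). The median over all measured genes was -0.03 and the SD over genes 0.64. The SD over genes was 0.58 for the ratio of the ischemia-reperfusion arrays and 0.27 for that of the sham arrays, while the responses themselves had SDs of 0.77 in the knockout-labelled pair and 0.46 in the wild-type pair. A part was taken to make the difference where its size was at least 2 times that of the other part. By this measure the ischemia-reperfusion arrays made 469 of the higher differences (3.40% of measured genes) and 575 of the lower ones (4.16%). The sham arrays made 70 of the higher (0.507%) and 18 of the lower ones (0.130%). Both pairs of arrays contributed in 117 higher (0.847%) and 65 lower genes (0.471%).

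**Figure D1:**
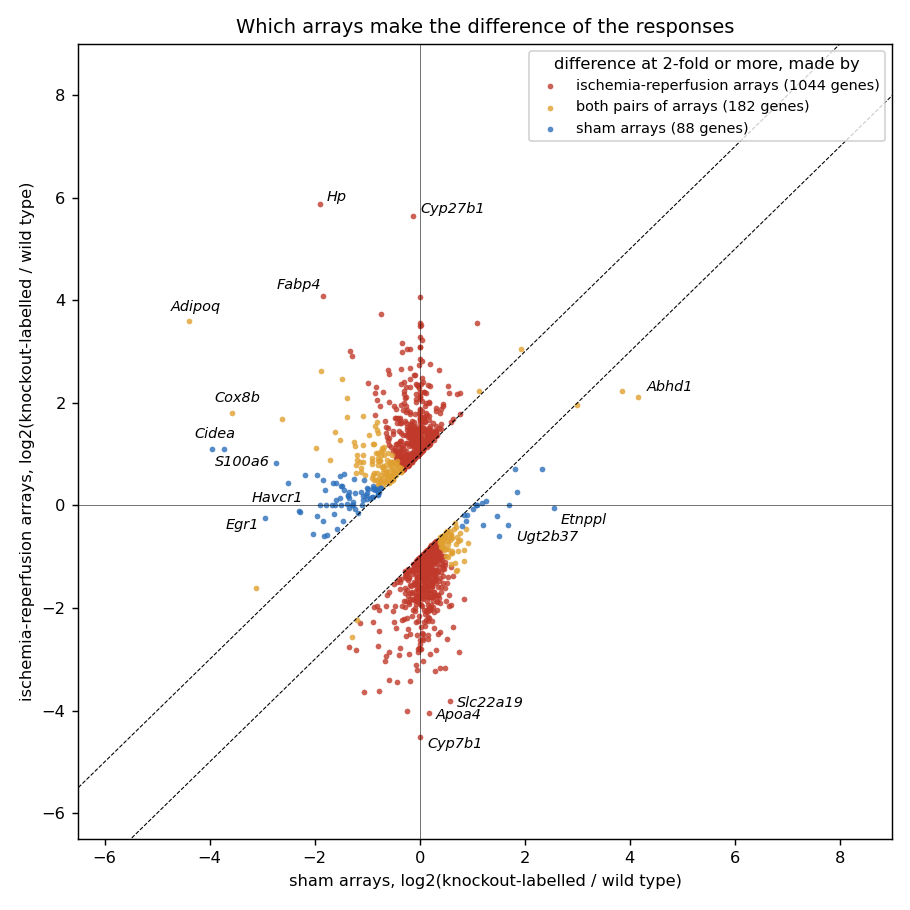
The parts of the difference for every gene counted at 2-fold or more. The horizontal axis is the log2 ratio of knockout-labelled to wild type in the sham arrays, the vertical axis the same ratio in the ischemia-reperfusion arrays, each point is 1 gene, the colour gives the arrays that make the difference, and the dashed lines mark a 2-fold difference. Most points lie along the vertical axis, where the sham arrays are alike, such as Cyp27b1 and Cyp7b1. The points to the left, such as Cidea, S100a6 and Egr1, were lower in the knockout-labelled sham array.

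The commonest pattern was a response that reached 2-fold in the knockout-labelled pair alone. The classes are cut from the same responses whose difference selected the genes. Over all measured genes the responses had SDs of 0.77 in the knockout-labelled and 0.46 in the wild-type pair. The sizes of the classes are therefore a description only. Among genes with a higher difference, 311 (47.4%) were at least 2-fold higher after ischemia-reperfusion in the knockout-labelled pair and under 2-fold in the wild-type pair. Among genes with a lower difference, 466 (70.8%) were at least 2-fold lower in the knockout-labelled pair and under 2-fold in the wild-type pair. Both responses were 2-fold or more higher in 67 genes with a higher and 4 with a lower difference. Both were 2-fold or more lower in 5 genes with a higher and 56 with a lower difference. In 92 genes with a higher difference the wild-type pair alone was 2-fold or more lower, and in 24 with a lower difference it alone was 2-fold or more higher. In 163 higher and 103 lower differences neither response reached 2-fold. Opposite responses of 2-fold or more were seen in 18 genes with a higher and 5 with a lower difference.

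**Figure D2:**
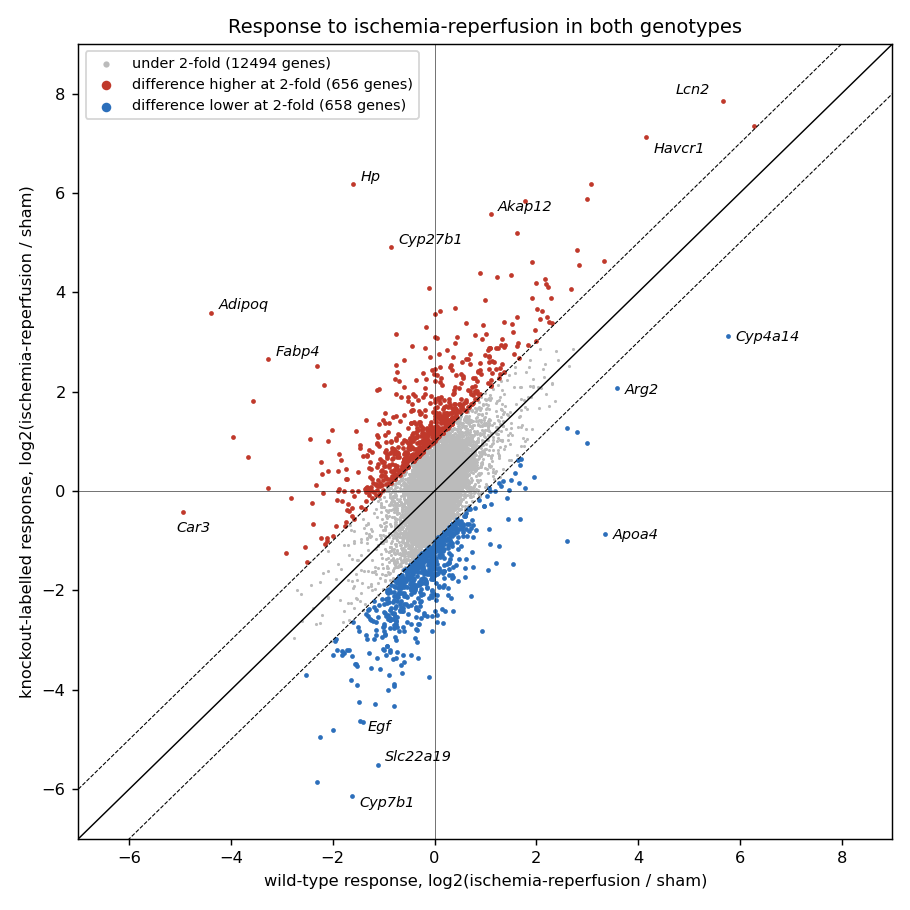
Response of each measured gene in the wild-type pair (horizontal axis) and in the knockout-labelled pair (vertical axis), both as log2 of ischemia-reperfusion over sham. Each point is 1 gene, the solid line marks equal responses and the dashed lines a 2-fold difference. Hp and Adipoq lie far above the lines with a lower wild-type and a higher knockout-labelled response, and Apoa4 lies below them with a response of 3.36 in the wild-type pair and -0.86 in the knockout-labelled pair.

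The wild-type response was at least 2-fold higher in 279 genes (2.02%) and lower in 295 (2.14%). The knockout-labelled response was higher in 824 genes (5.97%) and lower in 937 (6.79%). Genes that were higher in the wild-type pair had a median response of 1.32 there and of 1.53 in the knockout-labelled pair, where 202 of the 279 (72.4%) were also 2-fold or more higher. Genes that were lower in the wild-type pair had medians of -1.34 and -0.96, and 143 of the 295 (48.5%) were also 2-fold or more lower in the knockout-labelled pair. Of the 824 and 937 genes counted in the knockout-labelled pair, those 202 and 143 are 24.5% and 15.3%. Across the measured genes, which are not independent replicates, the responses had a Pearson r of 0.55 and a Spearman rho of 0.49. The ratios of the sham arrays and of the ischemia-reperfusion arrays had an r of -0.01, with no array in common.

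**Figure D3:**
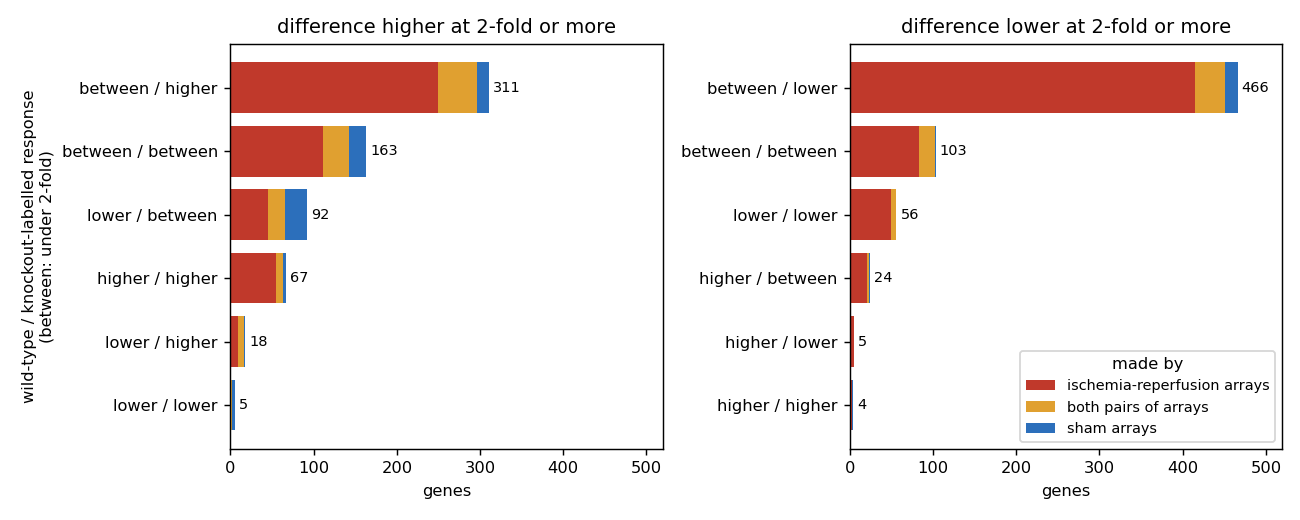
Number of genes by the class of their responses, for higher (left) and lower (right) differences. Each bar is a class named by the wild-type and then the knockout-labelled response, between meaning under 2-fold, the colours give the arrays that make the difference, and the number at the bar is its total. The classes with a response in the knockout-labelled pair alone are the longest, with 311 and 466 genes.

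Other probe sets of the same genes had the same sign in most cases. Of 297 genes with a higher difference that had another probe set over the floor, 275 (92.6%) had the same sign there on median and 199 (67.0%) a size of 0.5 or more as well. The figures for lower differences were 257 (91.5%) and 193 (68.7%) of 281 genes. Over all 6208 measured genes with another probe set, 51.8% were positive, 13.8% were at or over 0.5 and 12% at or under -0.5. For the 28 sham-made higher genes with another probe set, 26 had the same sign.

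Hp, Fabp4, Cyp27b1, Akap12, Ifi27l2a and Cldn4 led the higher differences made by the ischemia-reperfusion arrays. Leading genes, here and below, are those left by a filter on probe sets and floor that is given with the processing. It kept a gene only where its other probe sets, if any, had on median the same sign. Their agreement in sign was therefore set in advance. Haptoglobin, Hp, which binds free haemoglobin, had log2 signals of 7.77, 6.17, 5.86 and 12.04. It was far higher in the injured knockout-labelled kidneys than in any other array, and its difference was 7.78, or 219-fold. The ischemia-reperfusion arrays gave 5.87 of it, and the sham arrays, in which Hp was lower with the knockout label, had a ratio of -1.91. Cyp27b1, the enzyme of the proximal tubule that makes the active vitamin D hormone, had 6.58, 5.23, 6.45 and 11.36. The wild-type ischemia-reperfusion array was under the floor, so its difference was at least 5.77, or at least 54.5-fold, with a sham ratio of only -0.13. Akap12, a scaffold of protein kinase A, had 8.39, 9.50, 7.66 and 13.23 and a difference of 4.47.

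Cldn4, a tight junction claudin, had log2 signals of 8.84, 8.73, 7.55 and 11.64. Its difference of 4.20 combined an ischemia-reperfusion ratio of 2.92 with a sham ratio of -1.29. Saa3, a serum amyloid A protein, had 6.90, 7.01, 6.56 and 10.19, so that only the injured knockout-labelled kidneys were high, and its difference was 3.52. Zbtb16, a zinc finger transcription factor, followed with a difference of 3.37, but 2.65 and 0.19 on its other probe sets. Ctla2a, a cysteine protease inhibitor, had 3.29 and sham arrays that were equal (a ratio of 0.00). Tert, the catalytic subunit of telomerase, reached a difference of at least 3.28, but its other probe set gave 0.14.

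In another group of these genes the wild-type kidneys were lower after injury and the knockout-labelled ones were not. Fabp4, the fatty-acid-binding protein of fat cells and capillary endothelium, had log2 signals of 12.22, 8.95, 10.39 and 13.04. Its difference was 5.92, or 60.6-fold, and its other probe sets gave a median of 2.94. Ifi27l2a, an interferon-induced gene, had 9.90, 6.24, 8.57 and 9.25, with a response of -3.66 in the wild-type pair and 0.68 in the knockout-labelled pair. Itga8, the integrin alpha chain of mesangial and other stromal cells, had responses of -3.27 and 0.07 and a difference of 3.34. Its other probe set gave 0.08, but was at the floor in all arrays except wild-type sham. Podxl, the sialomucin that coats podocytes, had log2 signals of 9.59, 7.15, 9.62 and 10.68. Its sham arrays were alike, its difference was 3.50, and its other probe set gave 0.36.

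Cyp7b1 and Slc22a19, both late proximal tubule genes, led the lower differences made by the ischemia-reperfusion arrays, followed by Apoa4, Ccl28 and Acox2. Cyp7b1, an oxysterol hydroxylase, had log2 signals of 13.56, 11.95, 13.57 and 7.43. Both sham arrays were alike, with a ratio of 0.01, and the difference was -4.52, or 23.0-fold, with -4.12 on the other probe set. Slc22a19, an organic anion transporter, had 12.21, 11.09, 12.78 and 7.27 and a difference of -4.39. Mep1b, a subunit of the brush border protease meprin, had responses of -2.31 and -5.85, Serpina1f of -0.80 and -4.33, and the transporter Slc22a7 of -1.40 and -4.64. All of these were lower in both pairs and lower by more in the knockout-labelled one. The other genes of the leading 12 were Akr1c14, an aldo-keto reductase of steroids, with -3.13, the transporter Slc22a13 with -3.12, and Egf, the growth factor precursor of the loop of Henle and distal tubule, with -3.16.

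In Apoa4, Apoc3, Ccl28 and Acox2 the wild-type response was near 0 or higher. Apoa4, an apolipoprotein, had log2 signals of 7.53, 10.89, 7.70 and 6.84, so that the injured wild-type kidneys alone were high. Its difference was -4.22, with -4.58 on the other probe set. Its neighbour Apoc3, another apolipoprotein, had 9.99, 12.59, 10.74 and 9.74 and a difference of -3.60. Ccl28, a chemokine of epithelia, had 10.26, 11.20, 10.02 and 7.20 and a difference of -3.76. Acox2, a peroxisomal oxidase of branched fatty acids and bile acid precursors, had responses of -0.10 and -3.75. In Apoa4 and Apoc3 it was the wild-type response that was large, and in Ccl28 and Acox2 the knockout-labelled one.

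**Figure D4:**
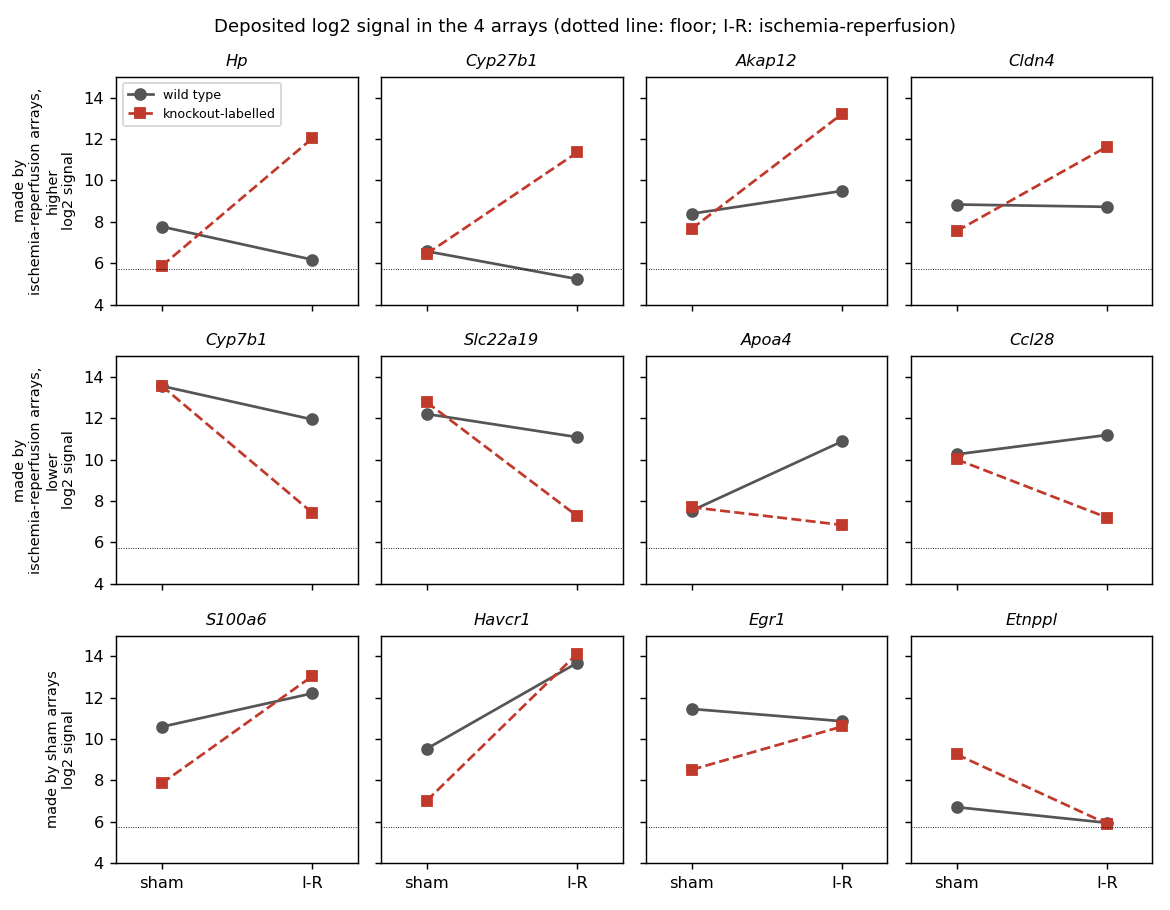
Deposited log2 signal of 12 genes in the 4 arrays, 1 panel a gene, with wild type as circles and solid lines, knockout-labelled as squares and dashed lines, and the floor as a dotted line. The horizontal axis gives sham and ischemia-reperfusion (I-R), and each point is 1 array. In the upper rows the lines part most at ischemia-reperfusion, as for Cyp27b1 and Cyp7b1. Those of Hp and Cldn4 part at sham too, with ratios of -1.91 and -1.29. In the bottom row the lines part most at sham and lie closer after injury, as for Havcr1 and Egr1.

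Among genes whose difference the ischemia-reperfusion arrays made, Cyp27b1 and Slc22a19 had the largest difference in each direction of those with an entry in the RefSeq promoter table (GRCm38.p6). Their promoters are given from 250 bases before to 30 bases after the start. Hp, Fabp4 and Cyp7b1, with larger differences, had no entry. The Cyp27b1 promoter lies at chr10:127047996-127048275 on the plus strand and held none of the motifs searched. That of Slc22a19 lies at chr19:7711281-7711560 on the minus strand, and the capitals mark matches to the STAT motif. It held 2 of them, at bases -224 to -216 and -123 to -115 from the start.
Cyp27b1: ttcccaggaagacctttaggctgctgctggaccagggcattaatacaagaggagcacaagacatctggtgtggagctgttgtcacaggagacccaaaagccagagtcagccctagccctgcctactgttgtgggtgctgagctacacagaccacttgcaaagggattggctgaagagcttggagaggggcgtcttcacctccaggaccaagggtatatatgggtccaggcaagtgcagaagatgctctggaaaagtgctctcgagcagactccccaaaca
Slc22a19: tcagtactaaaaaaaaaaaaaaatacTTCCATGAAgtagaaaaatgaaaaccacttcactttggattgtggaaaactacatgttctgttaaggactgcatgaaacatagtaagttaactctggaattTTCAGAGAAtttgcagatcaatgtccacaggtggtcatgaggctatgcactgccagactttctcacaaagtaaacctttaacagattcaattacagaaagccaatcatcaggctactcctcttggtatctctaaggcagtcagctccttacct
The motifs were searched on both strands and may overlap. Over all 32851 promoters of the table, with 50 bases after the start, 8.30% held the STAT motif (TTC and GAA around any 3 bases), 7.81% the AP-1 motif TGANTCA, 13.6% TATAAA, 7.10% the HNF1 motif GTTAAT and 1.63% a CArG box, the element bound by serum response factor. A match is a description of these letters and no evidence of binding. Shares by class of gene are not given, because only 63.8% of the measured genes, and 54.3% to 66.1% of the classes, had exactly 1 promoter in the table.

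Cidea, Sptssb, S100a6, Havcr1, Krt18, Egr1 and the urothelial genes Ly6d and Upk3b led the higher differences made by the sham arrays, in which the knockout-labelled array was the lower one. S100a6, a calcium-binding protein of injured epithelium, had log2 signals of 10.58, 12.20, 7.84 and 13.04. Its sham ratio was -2.74 and its ischemia-reperfusion ratio 0.83, giving a difference of 3.57. Havcr1, which encodes kidney injury molecule 1 of the proximal tubule, had 9.52, 13.68, 7.0 and 14.13. Its responses were 4.16 and 7.12, yet after injury the genotypes differed by a ratio of only 0.45, against -2.52 after sham; the other probe set had a difference of 1.87. Krt18, a keratin of simple epithelia, had 9.31, 9.92, 7.12 and 10.51 and a difference of 2.77.

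Egr1, an early response transcription factor, had log2 signals of 11.45, 10.85, 8.51 and 10.60. The knockout-labelled sham array was the single low one, with a sham ratio of -2.94 and an ischemia-reperfusion ratio of -0.25. If 1 sham array served both genotypes as control, the sham arrays would cancel and Egr1 would have a difference of -0.25, in the other direction. Sptssb, a subunit of serine palmitoyltransferase, had 9.44, 7.14, 3.80 and 8.24 and a difference of at least 4.82, with 2.82 on its other probe set. Cidea, a lipid droplet protein of fat cells, had 9.68, 5.03, 5.01 and 6.82, high in wild-type sham above all, and a difference of at least 5.05. Of the 70 sham-made higher genes, 49 were over the floor in all 4 arrays, 17 were over it in wild-type sham and not in knockout-labelled sham, and 6 were over it in wild-type sham alone.

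Etnppl, Ugt2b5 and Ugt2b37 led the 18 lower differences made by the sham arrays, in which the knockout-labelled array was the higher one. Etnppl, a phospholyase of phosphoethanolamine, had log2 signals of 6.70, 5.94, 9.25 and 5.89, so that knockout-labelled sham alone was high, and a difference of -2.60. The glucuronosyltransferase Ugt2b37 had 10.48, 10.17, 12.17 and 9.79 and a difference of -2.07, and Ugt2b5 one of at least 4.25-fold in the same direction. Gsta2, a glutathione transferase, had 9.93, 12.73, 11.79 and 12.98. Both responses were higher, by 2.80 and 1.20, and met at nearly the same level after injury; with 1 common sham array its difference was 0.26, in the other direction. Cyp4a31 had a difference of -1.58, Nt5dc2 and Tent5a had -1.67 and -1.21, and Cym had one of at least 2.25-fold downward. Ugt2b, Gsta and Cyp4a genes have close relatives in the genome, and a probe set can bind RNA of more than 1 of them.

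The fat genes Adipoq, Cox8b and Car3 led the differences to which both pairs of arrays contributed. Adipoq, the hormone adiponectin of fat cells, had log2 signals of 10.11, 4.46, 4.19 and 9.31. Wild-type sham and knockout-labelled ischemia-reperfusion were high and the other arrays under the floor, which gave a difference of at least 7.98, or at least 253-fold. Cox8b, of the mitochondrial cytochrome oxidase of brown fat, had 9.30, 5.68, 5.60 and 7.53 in the same arrangement. Nupr1, a stress-induced chromatin protein, had 10.48, 8.31, 7.86 and 9.99 and a difference of 4.29, with 3.93 on the other probe set. Its responses were -2.17 and 2.13, and it was lower in the sham and higher in the ischemia-reperfusion array of the knockout label. Car3, a carbonic anhydrase of fat and muscle, had a difference of 4.50, with 1.55 and 2.15 on its other probe sets. The first of these was at the floor in all arrays except wild-type sham. The matrix protein Tnc had a difference of 3.94 and Pdk4, a kinase that shuts off pyruvate dehydrogenase, one of 3.48.

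Among the 65 lower differences with both pairs involved, Abhd1, a hydrolase, had the largest size of those named. Its log2 signals were 7.21, 7.56, 11.37 and 9.68, so that both knockout-labelled arrays were high, the sham array more so, with ratios of 4.16 and 2.12. Its difference was -2.03 and would be 2.12 with 1 common sham array. L3hypdh had a difference of -1.98, the cytokinesis gene Ect2 -1.96, the prostaglandin-degrading enzyme Hpgd -1.92 with -0.04 on its other probe set, the matrix gene Frem2 -1.79 as a bound, and Chid1 -1.73.

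Lists of genes that define nephron segments had medians below 0, and the ischemia-reperfusion arrays made all of their lower differences. In these bulk samples fewer cells of a type and less RNA per cell cannot be told apart. Over all measured genes 4.75% were higher and 4.77% lower, the shares to set beside the counts of these and the following lists. Of 29 measured genes of the late proximal tubule, 22 had a difference of 2-fold or more, all lower and all made by the ischemia-reperfusion arrays. The list had a median of -1.70, with 0.06 in the sham and -1.53 in the ischemia-reperfusion arrays, against -0.03 for all measured genes. Its summed linear signal was 212310, 136290, 219670 and 73655. Cyp2d26, nearest the median, had responses of -0.57 and -2.27. In the early proximal tubule 10 of 28 were lower and 2 higher, with a median of -0.66. The monocarboxylate transporter Slc16a9 had -1.97, the dicarboxylate transporter Slc13a3 -1.73, and the endocytic receptor Cubn, with log2 signals of 12.83, 12.66, 12.86 and 11.02, had -1.68. In these 3 genes the first 3 arrays were alike and the injured knockout-labelled kidneys lower. The neutral amino acid transporter Slc6a19 went the other way, with responses of -0.61 and 0.87, and its ischemia-reperfusion arrays made the difference of 1.49, with 0.59 on its other probe set.

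Loop of Henle genes had a median of -1.14, and 12 of 15 were lower, all by the ischemia-reperfusion arrays. On the second-brightest probe set, available for 5 of them, the median was -0.39. Sostdc1, a BMP antagonist, had log2 signals of 11.17, 11.37, 11.17 and 8.75 and a difference of -2.62. The claudins Cldn10 and Cldn16 had -1.91 and -1.84, and the transcription factor Irx1 had -1.80. In the distal and connecting tubule 5 of 15 were lower and 0 higher, with a median of -0.61. Slc8a1, the sodium-calcium exchanger, had -2.20 but -0.40 on its other probe set, the calcium buffers Pvalb and Calb1 had -1.93 and -1.47, and Kl, which encodes klotho, had log2 signals of 12.45, 11.69, 12.65 and 10.04 and a difference of -1.85 but -0.32 on its other probe set.

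In the collecting duct 8 of 22 genes were lower and 1 higher, and the median was -0.30. Slc4a1, the chloride-bicarbonate exchanger of intercalated cells, had 9.22, 8.61, 9.03 and 5.42, a difference of at least 6.45-fold downward. The water channel Aqp6 had -2.28 with a median of -0.80 on its other probe sets, the proton pump subunit Atp6v1b1 -1.56, and the peptide hormone Apela -1.68 with 0.11 on its other probe set. The transcription factor Elf5 was the higher one, made by the sham arrays, with log2 signals of 8.65, 6.90, 6.35 and 6.80. Its other probe set had a difference of -0.14, and with 1 common sham array it had -0.10.

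Injury genes of the tubule had higher differences, in most of them made by the ischemia-reperfusion arrays. On this list 16 of 25 measured genes had a higher difference and 0 a lower one, 11 of them by the ischemia-reperfusion arrays, 2 by the sham arrays and 3 by both, and the median was 1.20. The intermediate filament gene Vim had log2 signals of 8.62, 8.17, 8.35 and 10.11 and a difference of 2.20, with 2.35 on its other probe sets. The keratin Krt19 had 7.65, 7.56, 6.14 and 8.84 and a difference of 2.80 from both pairs. Hbegf, a ligand of the EGF receptor, had one of 1.20, with 0.57 on its other probe set. Annexins, S100 proteins and galectin-3 had 8 of 16 higher and a median of 0.96. Anxa1, an annexin that limits inflammation, had responses of -0.97 and 1.38. Anxa2 and Lgals3 were higher in both pairs, with responses of 1.54 and 3.21 and of 2.08 and 3.46. The difference of Anxa2 was 1.66, but 0.21 on its other probe set.

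Acute phase and fibrinogen genes had a median of 2.05, and 8 of 15 were higher and 0 lower. The fibrinogen chain genes Fga and Fgg were high after injury in both genotypes and differed in the sham arrays too. Fgg had log2 signals of 9.24, 12.31, 7.26 and 13.44, with a sham ratio of -1.97 and an ischemia-reperfusion ratio of 1.12. For Fgb both sham arrays were under the floor, with 8.73 and 11.59 after injury, and the difference of 2.86 is neither an upper nor a lower bound. Steap4, a metalloreductase, had a difference of at least 2.92, with 0.29 on its other probe set. That probe set was at the floor in all arrays except knockout-labelled ischemia-reperfusion. The list's median was 1.23 with the floor at the 30th percentile, 0.98 with 1 common sham array and -0.49 over the second-brightest probe sets of only 3 genes.

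Genes of endothelium, podocytes and stroma had median responses below 0 in wild type and nearer to or above 0 with the knockout label. The endothelial list had median responses of -0.97 and -0.19, a median difference of 0.91, and 9 of 22 genes higher and 0 lower, all 9 by the ischemia-reperfusion arrays. Its summed signal was 16720, 4632, 12671 and 15054, and Vwf and Sele were under the floor in all arrays. Fabp4, which is also on the fat list, carried much of this sum. Without it, a choice made after its values were seen, the sum was 11934, 4136, 11331 and 6637, so that the injured knockout-labelled kidneys were below and not above their sham, and 8 of 21 genes were higher with a median of 0.91. Emcn, a capillary sialomucin, had log2 signals of 9.91, 7.08, 9.16 and 9.01 and a difference of 2.69. Nos3, the endothelial nitric oxide synthase, had responses of -0.44 and 1.12, Cd34 of -1.70 and -0.26, and Ehd3, an endocytosis gene of glomerular endothelium, of -1.05 and 0.31. Flt1, a VEGF receptor, lay nearest the median with 0.91.

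Podocyte genes had median responses of -0.57 and 0.35 and a median difference of 0.84, and 8 of 17 were higher and 0 lower, all by the ischemia-reperfusion arrays. The sum of the list was 8297, 5794, 8552 and 11328. Synpo, an actin-associated protein of foot processes, had log2 signals of 8.53, 7.0, 8.52 and 9.73 and a difference of 2.75. Cdkn1c, a cell cycle inhibitor, had 3.25, the receptor phosphatase Ptpro 2.45 and the transcription factor Wt1 at least 1.83. Podocyte genes do not all lie together: Nphs1, the slit diaphragm protein nephrin, chosen here after its value was seen, had log2 signals of 6.67, 6.36, 6.87 and 6.75 and a difference of 0.19. On second-brightest probe sets, available for 9 of the genes, the list had a median of 0.04, with 0.08 for Synpo and -0.04 for Ptpro. That of Ptpro was at the floor in all arrays except knockout-labelled sham. For Synpo the ischemia-reperfusion arrays were equal on this probe set, as arrays at the floor are.

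Among fibroblast, mural cell and matrix genes 10 of 26 were higher and 1 lower, with median responses of -0.74 and 0.06 and a median difference of 0.57. Smooth muscle actin Acta2 had log2 signals of 9.70, 8.95, 8.87 and 11.26 and a difference of 3.14. Tagln, another smooth muscle gene, had 3.15, and Postn, a matrix protein of activated stroma, 3.04. All 3 were highest in the injured knockout-labelled kidneys, and the ischemia-reperfusion arrays made the difference. The median of the list was 0.08 over second-brightest probe sets of 13 genes and 0.28 over the median of each gene's probe sets.

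Lists of markers of fat and of the lining of the urinary tract, tissues next to the kidney, also had median differences above 0. The fat list had a median difference of 2.42, with 10 of 14 measured genes higher, 6 by both pairs, 2 by the sham and 2 by the ischemia-reperfusion arrays. Its medians were -1.27 in the sham and 0.98 in the ischemia-reperfusion arrays. Of its 16 genes on the array, 14, 9, 9 and 13 were over the floor, and the summed signal was 36404, 15808, 26019 and 20037. Lep and Elovl3 were under the floor in all arrays. Over the 9 members above the floor in all 4 arrays the median was 1.11. Lpl, Dgat2, Pparg and Fabp4 are also expressed by other cells of the kidney, and the part of fat in other differences was not tested.

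**Figure D5:**
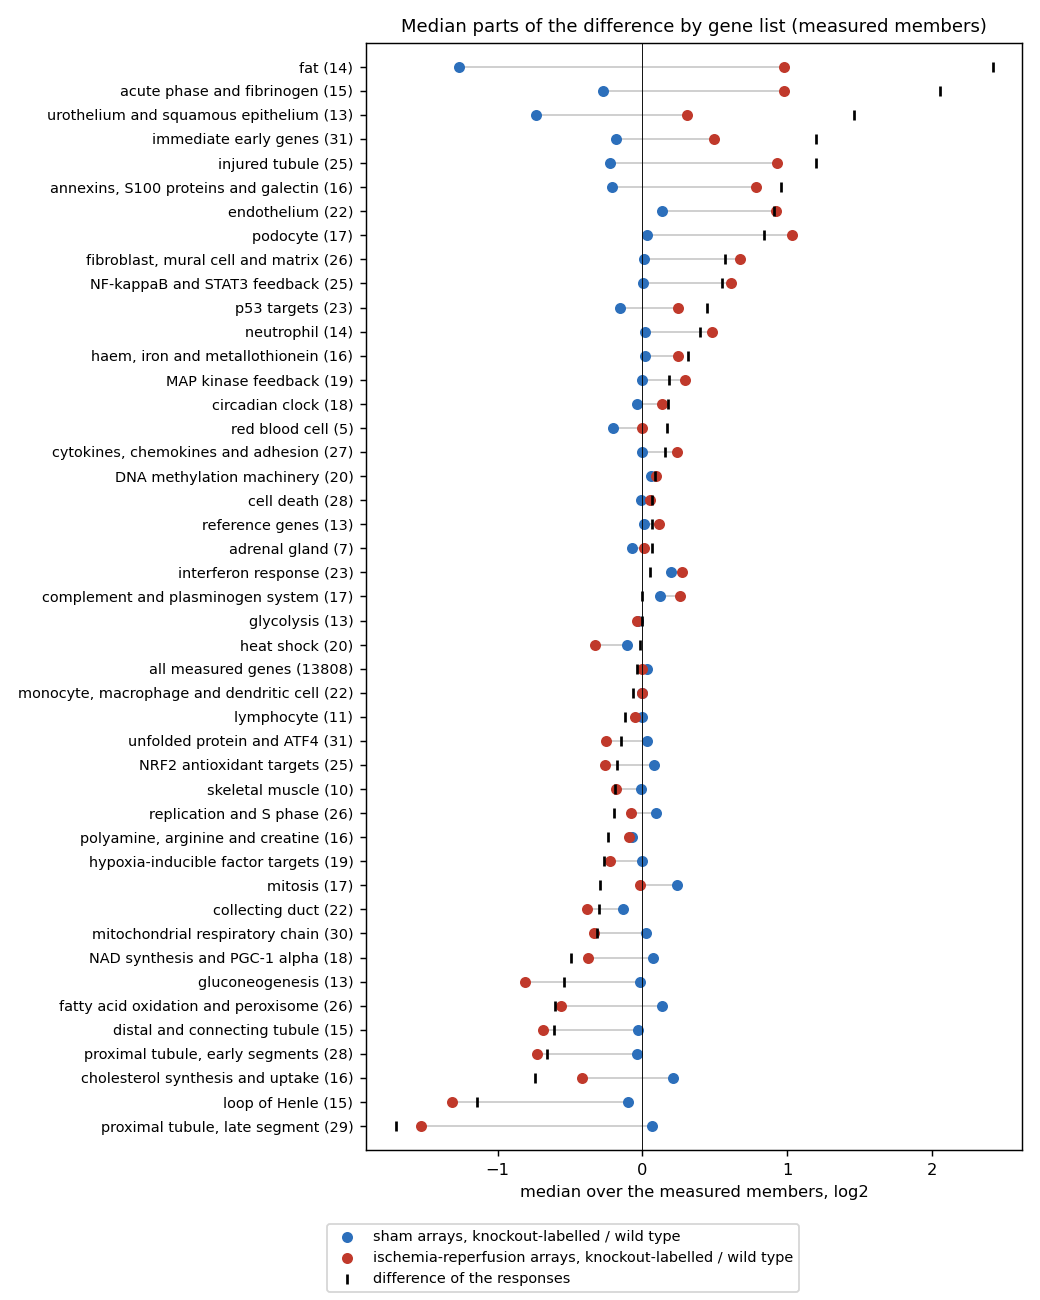
Medians over the measured members of each gene list (their number in parentheses) on a log2 scale: the knockout-labelled over wild-type ratio in the sham arrays (blue), the same in the ischemia-reperfusion arrays (red) and the difference of the responses (black bar), ordered by the last. A median of differences need not equal the difference of the medians. The fat, urothelium and acute phase lists have a blue point left of 0, and the late proximal tubule and loop of Henle lists a red point far to the left at -1.53 and -1.31.

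Urothelial and squamous genes had a median of 1.46, and 8 of 13 were higher and 0 lower, 5 of them by the sham arrays. Upk1b, a uroplakin of the bladder and pelvis lining, had log2 signals of 8.25, 7.34, 6.73 and 7.92, a difference of 2.10, with 2.21 on the median of its other probe sets. Psca had 2.11, Ly6d 2.55, Upk3a 1.46 and Upk3b at least 2.34; Upk3a would have -0.17 with 1 common sham array. In each of these knockout-labelled sham was the lowest array and wild-type sham the highest. Sprr2f, a cornified envelope protein, had 3.94, 7.49, 3.76 and 11.55 and differed after injury instead. The summed signal of the list was 2616, 3528, 1103 and 5299, and Krt14, Sprr1b, Sprr2h, Trp63 and Krt13 were under the floor in all arrays. How far pelvis lining in the samples bears on the other differences was not tested.

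Immediate early genes had a median of 1.20, and 20 of 31 were higher and 0 lower. The median was 0.49 with 1 common sham array and 0.54 over second-brightest probe sets of 13 genes. These genes are switched on within minutes of growth factor, stress or mechanical signals. The ischemia-reperfusion arrays made 9, the sham arrays 6 and both 5 of the differences. Junb, a subunit of AP-1, had log2 signals of 8.04, 7.52, 6.79 and 8.69 and a difference of 2.41 from both pairs. Its relative Fosl2 had 2.34, with 0.07 on the other probe set, and Btg2, an antiproliferative gene, had 2.07 from the sham arrays. Ccn2, a matricellular target of TGF-beta and YAP, had 10.56, 10.38, 10.65 and 12.60, so that its sham arrays were alike and its difference of 2.14 was made after injury. Klf2, nearest the median, had responses of -0.95 and 0.25.

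Zfp36 and Tiam1 are shown because a CArG box is an element of early response genes. Among genes whose difference the sham arrays made, they had the largest differences of those considered with such a box in their RefSeq promoter (GRCm38.p6). Genes on a chromosome set aside beforehand, and genes without an entry, were not considered. Zfp36, which encodes a protein that destabilises AU-rich mRNAs, had log2 signals of 10.49, 10.12, 9.42 and 10.61 and a difference of 1.56. Tiam1, an exchange factor of RAC1, had 8.10, 7.30, 6.74 and 7.50 and one of 1.56 as well. Knockout-labelled sham was the lowest array in both. The Zfp36 promoter lies at chr7:28379199-28379478 and that of Tiam1 at chr16:89974670-89974949, both on the minus strand. Capitals mark, in Zfp36, the CArG box at -58 to -49 and a STAT motif at -17 to -9. In Tiam1, which has 2 promoters in the table, they mark an AP-1 motif at -15 to -9 and the CArG box from base 6 to base 15 after the start.
Zfp36: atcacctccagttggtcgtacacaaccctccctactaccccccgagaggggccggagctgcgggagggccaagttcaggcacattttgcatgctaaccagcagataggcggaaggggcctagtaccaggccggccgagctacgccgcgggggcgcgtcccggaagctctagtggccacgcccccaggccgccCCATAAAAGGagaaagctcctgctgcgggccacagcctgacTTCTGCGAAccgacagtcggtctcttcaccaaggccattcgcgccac
Tiam1: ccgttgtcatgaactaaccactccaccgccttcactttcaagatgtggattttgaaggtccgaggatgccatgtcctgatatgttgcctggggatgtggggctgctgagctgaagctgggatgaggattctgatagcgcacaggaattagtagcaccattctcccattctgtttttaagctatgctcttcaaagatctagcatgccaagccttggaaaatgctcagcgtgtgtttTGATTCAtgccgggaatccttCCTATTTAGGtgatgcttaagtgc

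Stress and growth control genes differed in part. In the MAP kinase feedback list 3 of 19 were higher: the phosphatase Dusp1 had log2 signals of 12.01, 9.78, 10.94 and 11.53 and a difference of 2.82 from both pairs, Dusp5 had 1.32 and Spred3 1.29 with 3 arrays under the floor. Heat shock genes had a median of -0.02, and 4 of 20 were higher. Hspb1, a small heat shock protein, had responses of 1.52 and 3.37. Hspa1b and Hspa1a, inducible HSP70 genes of nearly identical sequence, had log2 signals of 12.06, 11.59, 10.02 and 11.04 and of 9.53, 8.81, 8.07 and 8.51. Knockout-labelled sham was lowest in both, the sham arrays made the differences of 1.48 and 1.15, and with 1 common sham array these were -0.55 and -0.30. Hspb8 had 1.47, with 0.08 on its other probe sets.

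Of 31 genes of the unfolded protein response and of ATF4, 6 were higher and 4 lower. The serine synthesis enzymes Phgdh and Psat1 had differences of 2.10 and 2.02, the first made by the ischemia-reperfusion and the second by the sham arrays, and Chac1, which degrades glutathione, had 1.67. Sdf2l1, a protein of the endoplasmic reticulum, had -1.65. In the p53 list 4 of 23 were higher (17.4%) and 1 lower (4.35%), against 4.75% and 4.77% of all measured genes. The cell cycle inhibitor Cdkn1a had log2 signals of 7.75, 9.75, 7.43 and 11.61, responses of 2.0 and 4.19 and a difference of 2.19, and the kinase Plk3 had 2.61. The exception was Dcxr, a xylulose reductase of the proximal tubule, with -1.26. Among 28 cell death genes Mlkl, the effector of necroptosis, Bak1 and Tnfrsf1a were higher, with 1.89, 1.06 and 1.05, the first with both sham arrays under the floor.

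Among 25 targets of NRF2, the regulator of antioxidant genes, 3 were higher and 2 lower. Srxn1, which restores peroxiredoxins, had log2 signals of 8.92, 11.16, 9.02 and 12.42 and a difference of 1.16. Gsta4 had 2.19 from both pairs and Abcc4 1.23 from the sham arrays, while Gsta3 had -1.46. Of 16 genes of haem, iron and metallothionein, 4 were higher and 1 lower. The metallothioneins Mt1 and Mt2 were higher in both pairs, with responses of 1.12 and 2.62 and of 1.84 and 2.93. Alas1, the first enzyme of haem synthesis, had responses of 0.07 and 1.88, and the zinc exporter Slc30a1 had a difference of -1.07, with -0.46 on its other probe set.

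Lists of tubule metabolism had medians below 0, while most of their members were under 2-fold. The ischemia-reperfusion arrays made all of the lower differences on these lists except 1 of cholesterol synthesis. In fatty acid oxidation 4 of 26 were lower (15.4%) and 1, Pdk4, higher (3.85%), with a median of -0.60. Of all measured genes 4.77% were lower and 4.75% higher. Cyp4a14, a fatty acid hydroxylase, had log2 signals of 7.73, 13.51, 8.57 and 11.69. It was higher in both pairs, with responses of 5.77 and 3.12 and a difference of -2.65. Acadm, the medium-chain dehydrogenase, had 14.28, 13.93, 14.30 and 12.72 and a difference of -1.22, the peroxisomal enzyme Ehhadh had -1.40 and Acsm3 -1.74. Gluconeogenesis had a median of -0.54, with 5 of 13 lower and 0 higher. Pck1, its rate-controlling enzyme, had 13.35, 13.89, 13.54 and 12.83 and a difference of -1.25, with -1.72 on its other probe set, and G6pc and Slc37a4, which release glucose, had -1.08 and -1.36.

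Cholesterol synthesis and uptake had a median of -0.74, and 7 of 16 were lower and 0 higher. Cyp51 and Idi1 were lower in both pairs, with responses of -1.73 and -3.21 and of -1.15 and -2.63. Hmgcs1 had log2 signals of 13.20, 13.31, 13.40 and 12.31 and a difference of -1.21, with -1.27 on its other probe sets. Genes of NAD synthesis and PGC-1 alpha had a median of -0.49, with 5 of 18 lower and 0 higher. Haao, an enzyme that leads from tryptophan to NAD, had -1.79, the mitochondrial deacylase Sirt3 -1.38, and Nampt, of the salvage route, had responses of 0.68 and -0.67. The respiratory chain had a median of -0.31, and 1 of 30 (3.33%, under the 4.77% of all measured genes), the complex I subunit Ndufs1, was lower, with -1.10.

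Glycolysis genes had a median of 0.00, and 2 of 13 were higher. These were hexokinase Hk2, with log2 signals of 6.27, 5.98, 5.87 and 7.43, and the lactate transporter Slc16a1, with 9.52, 10.59, 9.14 and 11.84. Ldha, lactate dehydrogenase, had responses of -0.13 in both pairs. Among 19 targets of hypoxia-inducible factor 4 were lower and 1 higher. The carbonic anhydrases Car12 and Car9 had -1.71 and -1.38, the prolyl hydroxylase Egln3 -1.28 and the kinase Pdk1 -1.22 (a median of -0.45 on its other probe sets), whereas the matrix cross-linking enzyme Lox had 2.0. Of 16 genes of arginine, creatine and polyamines, 3 were lower and 2 higher. Arg2, the mitochondrial arginase, had 8.51, 12.10, 8.32 and 10.39, higher in both pairs by less in the knockout-labelled one, and the spermine oxidase Smox had 1.81.

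On the lists of replication and mitosis 1 gene differed at 2-fold or more. Replication and S phase genes had median responses of 0.99 and 0.78, and 0 of 26 were called higher or lower. Mcm4, a subunit of the replicative helicase, had responses of 1.66 and 1.49. Of 17 mitosis genes that 1 was lower, the kinesin Kif20b, with log2 signals of 10.04, 7.52, 10.33 and 6.64. That is 5.88%, near the 4.77% of all measured genes. Reference genes had 0 of 13 called and a median of 0.07.

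Feedback genes of NF-kappaB and STAT3, the mediators of cytokine signals, had a median of 0.55, with 10 of 25 higher and 0 lower. Cebpd, a transcription factor of the acute phase, had log2 signals of 8.30, 8.08, 7.72 and 10.11 and a difference of 2.60, with 0.46 on its other probe set. Osmr, a receptor of oncostatin M, had 1.70, the interleukin 6 receptor Il6ra 2.08 with 0.02 on its other probe set, and the kinases Pim3 and Pim1 had 2.05 and 1.63. The other probe sets of Osmr, Pim3 and Pim1 were under 2-fold as well, with 0.64, a median of 0.72, and 0.58. That of Osmr was at the floor in all arrays except knockout-labelled ischemia-reperfusion. Cytokines, chemokines and adhesion molecules had a median of 0.16, with 5 of 27 higher and 2 lower. Cxcl12, a chemokine of tubule and stroma, had 11.55, 10.90, 11.12 and 7.46 and a difference of -3.02, with -3.60 on its other probe set. Cxcl10 had -1.43, Il34, a ligand of the CSF1 receptor, 1.63, and the adhesion molecule Vcam1 1.43, with a median of 0.68 on its other probe sets. Cxcl2, a chemokine for neutrophils, had 3.91 in knockout-labelled sham and 7.99 after injury there, and 4.21 and 5.85 in wild type.

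Neutrophil genes had a median of 0.40, with 5 of 14 higher and 0 lower, all by the ischemia-reperfusion arrays. S100a8, an alarmin of neutrophils, had log2 signals of 5.58, 6.95, 5.09 and 10.03, and its partner S100a9 had 6.25, 7.24, 6.07 and 9.92. Lcn2, which injured tubules make as well, had 6.36, 12.03, 5.31 and 13.57. The summed signal of the list was 1029, 5344, 1051 and 15405, and Cxcr2, Mpo and Clec4e were under the floor in all arrays. Lcn2 carried most of the sum after injury. Without it, a choice made after its values were seen, the sum was 947, 1151, 1012 and 3257, and 4 of 13 genes were higher with a median of 0.38. Monocyte, macrophage and dendritic cell genes had a median of -0.07, with 4 of 22 higher (18.2%) and 1 lower (4.55%). Of all measured genes 4.75% were higher and 4.77% lower. Chil3, a chitinase-like protein, had 8.82 in the injured knockout-labelled kidneys and was under the floor elsewhere, Cd14 had a difference of 2.86 and the class II gene H2-Eb1 one of -1.09. Lymphocyte genes had 0 of 11 called, with a median of -0.12. Adrenal gland genes had 0 of 7 called. On the skeletal muscle list Pvalb, also a distal tubule gene, was the single lower one of 10, and on the red blood cell list Alas2 was higher and Slc4a1 lower of 5.

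Interferon response genes had a median of 0.05, with 2 of 23 higher, Ifi27l2a and Ifit2, and 1 lower, Gbp3, which had responses of 1.35 and 0.21. The shares were 8.70% and 4.35%, against 4.75% and 4.77% of all measured genes. In complement and the plasminogen system 5 of 17 were higher, 0 were lower and the median was 0.00. Plat, tissue plasminogen activator, had log2 signals of 10.09, 10.03, 8.84 and 11.27 and a difference of 2.49 from both pairs, with 0.53 on its other probe set. Plaur, the urokinase receptor, had 2.12, and the anticoagulant receptors Thbd and Procr had 2.06 and 1.83. Serping1, the C1 inhibitor, had responses of -2.39 and -0.66.

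Of 20 genes of DNA methylation and its partners 2 were higher and 1, Tet2, was lower, and the median was 0.09. These are shares of 10% and 5%, against 4.75% and 4.77% of all measured genes. Gadd45g, which takes part in DNA repair and demethylation, had log2 signals of 10.22, 9.27, 9.17 and 9.87 and a difference of 1.64 from both pairs. Cxxc5, a CXXC zinc finger protein, had 10.71, 10.53, 10.75 and 11.68 and a difference of 1.11, with 1.06 on its other probe set. Tet3 had a difference of -0.04, and Tet1, with log2 signals of 5.77, 5.62, 5.78 and 5.82, lay near the floor. Circadian clock genes split, with 4 of 18 higher and 4 lower. Hlf and Dbp, PAR bZIP output factors, had -2.47 and -1.61, and Per2 had -1.64 with a median of -0.32 on its other probe sets, while Per1 had 1.82 and the repressor Nr1d1 1.38. The time of day of the surgery or of tissue collection is not given in the labels.

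Genomic neighbours that differed in the same direction were counted, without a test. In the order of the RefSeq table, 102 of 654 placed genes with a higher difference (15.6%) had such a neighbour, against 9.25% of all 13733 placed genes. For lower differences it was 133 of 656 (20.3%) against 9.20%. There were 13 runs of 3 or more neighbours. The higher runs were the fibrinogen chain genes Fgg, Fga and Fgb and the S100 genes S100a4, S100a6, S100a8 and S100a9 on chromosome 3, the serpins Serpinb1a, Serpinb6b and Serpinb9 on chromosome 13, and Ifitm2, Ifitm1 and Ifitm3 as well as Tomm40, Nectin2 and Bcam on chromosome 7. Lower runs of related genes were Apoa1, Apoc3 and Apoa4 on chromosome 9, Cyp4a12a, Cyp4a14 and Cyp4a31 on chromosome 4, Serpina10, Serpina6 and Serpina1f on chromosome 12, and Mettl7a1, Methig1 and Mettl7a2 on chromosome 15. The lower run Hsd3b2, Hsd3b3 and Hao2 on chromosome 3 held a related pair. The other lower runs were Tmem267, Ccl28, Hmgcs1 and Nim1k on chromosome 13, Cldn10, Dzip1 and Dnajc3 on chromosome 14, and Rmdn1, Wwp1 and Slc7a13 on chromosome 4. These last 3 and the run of Tomm40 hold genes of different families. In the runs of related genes probe sets can share sequence, and their counts are not independent.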

How the data were processed

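Kidney RNA of 4 groups was measured on Affymetrix arrays, 1 array a group with RNA pooled from 3 mice. The deposited values are log2 signals per probe set. That they are log2 was read from the values, and the submitters' processing notes name MAS5 with no version, so the authors' scaling and filters are not given in the sources used here. Columns were used as deposited.

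Each gene was read from its probe set with the highest mean signal, an _x_at probe set only where it had no other (100 genes). Signals under the 40th percentile were set to it. The SDs between probe sets of a gene left out _x_at probe sets. A difference was counted at 2-fold or more; bounds are given where a floored array can only make the difference smaller. No tests were made. The 44 gene lists (994 genes, 899 on the array; some genes stand on more than 1 list) and the genes shown were chosen with earlier results of these data known. Named were the 12, 8 and 6 largest differences per direction made by ischemia-reperfusion, sham and both pairs of arrays, after a filter. The filter left out clone and predicted names, genes read from an _x_at probe set, and differences that floored arrays could have made larger. It also left out genes whose other probe sets over the floor did not have on median the same sign. Also named were up to 5 counted members a list and the member nearest its median, Tet1 to Tet3 and up to 10 opposite responses per direction. Alternatives changed the floor, scaling, probe set and control. Python 3.11.15, pandas 2.3.3 and NumPy 2.4.6 were used. The scripts were tested on simulated data, with 4-fold changes put into genes far over the floor and little noise. That checks the code and not the calls made here.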

Additional observations from a re-analysis of the deposited data

Results flagged for a closer look

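In these genes the responses were 2-fold or more in opposite directions, lower after ischemia-reperfusion in the wild-type pair and higher in the knockout-labelled pair. With 1 array a group this was not tested. Among fat genes the difference was at least 7.98 for Adipoq, 5.92 for Fabp4, at least 5.38 for Cox8b and at least 5.05 for Cidea. The fat list had a median of 2.42, with median responses of -0.99 and 0.69. Its summed signal, however, was lower after injury in both pairs. It was 36404 and 15808 in wild type, and 26019 and 20037 with the knockout label. Hp had 7.78, Sptssb at least 4.82 and Nupr1 4.29. The podocyte genes Podxl and Cdkn1c had 3.50 and 3.25. Sfrp2, a secreted Wnt antagonist, had log2 signals of 6.86, 4.71, 6.91 and 8.94 in wild-type sham, wild-type ischemia-reperfusion, knockout-labelled sham and knockout-labelled ischemia-reperfusion and a difference of at least 3.17. The sham arrays made the difference in Cidea and Sptssb, both pairs in Adipoq, Cox8b and Nupr1, and the ischemia-reperfusion arrays in the other genes. Of these others, Hp and Fabp4 were also lower in the knockout-labelled sham array, with sham ratios of -1.91 and -1.84.

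The reverse arrangement, higher in the wild-type pair and lower in the knockout-labelled pair, was seen in Reep6 with -3.01, the anion exchanger Slc26a6 with -2.66, the endolysosomal channel Mcoln3 with -2.64, the acyl-CoA thioesterase Acot3 with -2.37 and Ly6f with -2.16. The ischemia-reperfusion arrays made all 5. Reep6 had log2 signals of 8.37, 9.92, 9.01 and 7.55, and Mcoln3 had -2.28 on its other probe set. This difference too was not tested.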

How the results depend on the processing

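No replicate could be left out, because each group had 1 array. No paired analysis was possible because each group had a single array and no shared replicate. Of the counted genes that had a value under the setting (1314 unless given), 99.5% kept their call with the floor at the 30th percentile, 91.2% of 1313 at the 50th, 99.2% without a floor, 93.6% after quantile normalization, 95.8% after centring, 71.2% with a pseudocount of 50, 76.1% of 1277 on the median of a gene's probe sets and 96.2% of 1146 on plain _at probe sets; the sign changed in 22 and 7 genes on the last 2 settings. With 1 sham array as common control 65.5% kept it and 23 changed sign, because the sham arrays then cancel. On the second-brightest probe set 271 of 562 (48.2%) kept it and 51 changed sign; the counts there, over 6118 genes, were 299 higher and 240 lower, made by the ischemia-reperfusion arrays in 205 and 210, by the sham arrays in 31 and 9 and by both in 63 and 21. With the pseudocount 46 higher differences were sham-made and 39 lower ones were made by both. Over genes above the floor in all 4 arrays 10 lower ones were sham-made. A ratio of 3 between the parts put 207 higher and 133 lower genes in the class of both, and taking each part at 2-fold or not put 215 and 191 there. Directions turned for Hspb8 (-0.037) on the median of its probe sets. On the second-brightest probe set they turned for Elf5 (-0.14), Apela (0.11), Ptpro (-0.042) and the acute phase list (-0.49). That probe set of Ptpro was at the floor in all arrays except knockout-labelled sham, so its value cannot show a direction. With 1 common sham array directions turned for Egr1 (-0.25), Gsta2 (0.26), Abhd1 (2.12), Elf5 (-0.10), Upk3a (-0.17), Hspa1b (-0.55) and Hspa1a (-0.30). For the other probe sets the cause was not tested. The number of arrays and the floor on dim probe sets limit what these differences show.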
